A study of Mus musculus with 6 samples.

Results

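Antisense and bidirectional promoter transcripts are noncoding RNAs made from the strand opposite a protein-coding gene or from a start shared back to back with one. In the escaping-index table they were the 1184 of 68473 transcripts whose transcript type in GENCODE M21 is antisense (1011) or bidirectional_promoter_lncRNA (173), found by their Ensembl identifiers without version. Transcripts of a gene with identical values in all libraries were taken once, which left 1181 transcripts (1008 antisense and 173 bidirectional) of 810 genes, out of 67020 distinct transcripts of 17349 genes. Up to 12 transcripts came from 1 gene, and 215 genes gave more than 1, so transcripts of a gene share sequence and reads and are not independent.

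The 6 libraries were from C57BL/6 mouse embryonic stem cells, the pluripotent cells of the early embryo, kept in serum with LIF and the inhibitors CHIR99021 and PD0325901. Cells labelled Mettl3 KO1 and Mettl3 KO2 (2 libraries each) were set against cells labelled Mettl3 Control (2 libraries). Mettl3 is the catalytic subunit of the enzyme that writes N6-methyladenosine (m6A) on RNA. The labels give neither the way each knockout was made nor whether KO1 and KO2 are single clones. Nor do they tell if replicate libraries came from different cultures. A p-value here thus reflects only how these libraries vary, which may be technical. RNA polymerase II was pulled down from nuclease-digested chromatin and the short RNA it held was sequenced (mNET-seq), which shows where polymerases sit.

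Most active mammalian promoters fire in both directions. The upstream antisense RNA usually stops early, at polyadenylation signals near its start, and is destroyed by the nuclear exosome, while the coding direction is favoured by splice sites that let the polymerase run on. A few antisense RNAs are long and have known roles, among them Airn and Kcnq1ot1, which silence imprinted genes in cis, and Tsix, which represses Xist. The authors' escaping index is the log2 of a ratio within each transcript, and since its windows are not stated, values are read only against each other. It measures neither the amount of RNA nor the number of polymerases. It is not scaled to length, so levels are compared at like length or described with the length beside them.

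Each noncoding transcript was paired with the outermost-start coding transcript in the table from the nearest protein-coding gene on the other strand, and 1010 had such a partner in the table (688 partner genes). Positions were set by the distance between the 2 starts, counted in the direction of the coding gene. There were 268 divergent transcripts, which start 1 to 1000 bases upstream of the coding start and run away from it, and 115 of these are of the bidirectional type. Another 309 started 0 to 1000 bases downstream of the coding start and run back towards it (start-overlapping), 173 of them in an exon and 133 in an intron of the gene. This class goes by distance alone, and Gm20632-201 in it starts past the end of the 528-base Hist2h2aa2 transcript. Farther inside the gene started 274 (internal), 122 started beyond its end by at most 5000 bases, and 208 lay elsewhere. The start of 648 lay inside the partner gene, 306 in an exon and 342 in an intron. These include 52 divergent transcripts, which start upstream of the paired coding transcript but within the gene as annotated. The median length on the genome was 5669 bases, and the median spliced length was 843 bases in 2 exons. Of the 1181 transcripts, 872 (73.8%) overlapped the body of the nearest coding gene, and whether strand was used in counting is not given in the sources used here, so their reads and those of the gene cannot be told apart. On their own strand, 48 also overlapped a coding gene.

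Promoter windows are shown first for the divergent transcripts on which the results turn, since their start regions are shared with a coding gene. Each is the RefSeq window (GRCm38.p6) of 250 bases before to 50 after the start, on the strand of the noncoding RNA, with every CG dinucleotide in capitals. A930005H10Rik, divergent to the paired transcript of Dph5 (a methyltransferase of diphthamide synthesis) but starting in an exon of that gene, rose in KO2. Its window lies at chr3:115888071-115888370 on the minus strand and holds 17 CG pairs. The 2310010J17Rik transcripts 201 and 202 start 736 and 229 bases upstream of Picalm, a clathrin assembly protein, and moved in opposite directions in KO2. Transcript 202 was added to the named transcripts after its values were seen. Tmem51os1-203 starts 36 bases upstream of Tmem51 and fell in KO2. The RefSeq starts are not the GENCODE starts of these transcripts. They lie 26 bases from the start of A930005H10Rik-206, 3 from that of 2310010J17Rik-201, 48 from that of 2310010J17Rik-202 (and 4 from that of its isoform 203, which also fell in KO2) and 42 from that of Tmem51os1-203. The last is the GENCODE start of Tmem51os1-202, which did not pass in KO2 (-1.05, limma adjusted p = 0.0929). Each window is thus that of a start region, named for the transcript described.
A930005H10Rik-206: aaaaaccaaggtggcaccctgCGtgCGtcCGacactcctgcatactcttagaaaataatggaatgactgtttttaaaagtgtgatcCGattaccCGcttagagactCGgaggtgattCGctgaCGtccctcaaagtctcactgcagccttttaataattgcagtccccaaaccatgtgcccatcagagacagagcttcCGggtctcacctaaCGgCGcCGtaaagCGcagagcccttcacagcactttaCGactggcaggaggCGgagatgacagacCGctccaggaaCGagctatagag
2310010J17Rik-201: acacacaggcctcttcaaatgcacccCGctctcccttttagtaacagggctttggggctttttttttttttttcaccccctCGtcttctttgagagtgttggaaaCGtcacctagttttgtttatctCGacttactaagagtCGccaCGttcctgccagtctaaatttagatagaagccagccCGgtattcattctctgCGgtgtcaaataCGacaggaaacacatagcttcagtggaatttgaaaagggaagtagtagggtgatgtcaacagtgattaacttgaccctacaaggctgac
2310010J17Rik-202: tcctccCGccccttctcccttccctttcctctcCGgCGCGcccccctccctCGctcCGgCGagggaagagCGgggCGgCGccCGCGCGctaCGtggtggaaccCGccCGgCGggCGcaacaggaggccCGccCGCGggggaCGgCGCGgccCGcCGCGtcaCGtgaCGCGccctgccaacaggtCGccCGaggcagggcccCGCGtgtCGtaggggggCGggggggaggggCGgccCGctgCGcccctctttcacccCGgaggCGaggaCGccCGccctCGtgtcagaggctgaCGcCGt
Tmem51os1-203: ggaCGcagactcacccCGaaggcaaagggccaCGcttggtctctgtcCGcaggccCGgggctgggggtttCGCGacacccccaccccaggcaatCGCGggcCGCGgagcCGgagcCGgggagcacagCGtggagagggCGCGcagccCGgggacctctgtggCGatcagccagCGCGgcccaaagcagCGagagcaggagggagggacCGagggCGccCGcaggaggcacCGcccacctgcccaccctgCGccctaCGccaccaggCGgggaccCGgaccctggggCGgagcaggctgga

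The 2 windows of 2310010J17Rik differ in composition. The one nearest transcripts 202 and 203 (chr7:90129887-90130186, minus strand) has 46 CG pairs and a GC content of 79.0%, whereas the one at transcript 201 (chr7:90129425-90129724, minus strand) has 9 and 44.7%. The Tmem51os1 window (chr4:142084048-142084347, plus strand) has 30 CG pairs and a GC content of 75.0%. RefSeq windows were found for 356 of the 810 gene symbols, and 376 transcripts had a RefSeq start within 100 bases of their GENCODE start, in 265 different windows. These held a median of 24 CG pairs, against 23 in 719 windows of the partner genes and 7 in all 32851 RefSeq windows. The 98 windows of divergent transcripts had a median of 31 (27 in the 207 windows of their partners), those of start-overlapping transcripts 21.5 and those of internal transcripts 9. The windows of divergent RNAs were about as rich in CG as those of the coding genes beside them. Where the 2 starts lie close together, both windows cover many of the same bases, and CG reads the same on both strands. Like counts are thus partly set by position and are not a separate result. The windows of internal antisense RNAs were close to the value over all windows. The TATA box TATAAA was present on either strand in 3.77% of the noncoding windows, against 6.26% of the partner windows and 13.6% of all windows.

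Motifs were also counted on the sense strand in the first 1000 bases of each spliced transcript, where no intron sequence is present. The polyadenylation signal AATAAA occurred 0.51 times per kb in the noncoding transcripts, against 0.249 in their coding partners 0.315 over all transcripts and 0.549 in lincRNAs. Among the position classes it was densest in divergent transcripts, at 0.704 per kb. The 5 prime splice site sequence GGTAAG occurred 0.121 times per kb in noncoding transcripts, against 0.0523 in partners, 0.109 over all transcripts and 0.162 in lincRNAs. GGACT, the core of the m6A consensus, was in 63.4% of noncoding transcripts, 66.9% of partners and 60.6% of all transcripts, but the searched stretch was shorter in noncoding transcripts (a median of 843 bases, against 1000 in both other sets). The 749 noncoding transcripts with GGACT there changed by a median of -0.39 in KO2 and the 432 without it by -0.33, and these sets also differ in median length (5923 and 5164 bases). Each match is a letter string, not a shown site.

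The index of these RNAs was low compared with that of coding genes in every library. The median index over the 1181 transcripts was 1.91 and 1.93 in the KO1 libraries and 1.93 and 1.86 in the KO2 libraries, against 2.17 and 2.12 in the Control libraries. The partners had medians of 4.78 and 4.75 in KO1 and 4.52 and 4.54 in KO2, against 5.10 and 5.20 in Control. All 4 knockout libraries thus lay below both Control libraries in both sets. Partners are longer, with a median of 29182 bases on the genome, and the index rises with length. In Control, 82.4% of noncoding transcripts had a lower index than their own partner, and in divergent pairs 91.8%.

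Coding transcripts as a whole had Control medians of 4.19 and 4.21, and at like length the gap was smaller. Among transcripts of 3 to 10 kb, the Control median was 2.21 for the 402 noncoding transcripts, 2.33 for 445 lincRNAs (long RNAs between genes) and 2.60 for 7725 coding transcripts. Above 30 kb the medians were 4.68, 4.96 and 5.90 in the same order, and under 1 kb the order was reversed against coding transcripts, with -0.26 for 52 noncoding and -1.28 for 268 coding transcripts. Averaged over the 5 length bins with the weights of the noncoding transcripts, their index minus that of coding transcripts was -0.38 and -0.36 in KO1 and -0.35 and -0.45 in KO2, against -0.44 and -0.44 in Control. With the spliced length in place of the genomic length the Control difference was -1.29.

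**Figure D1:**
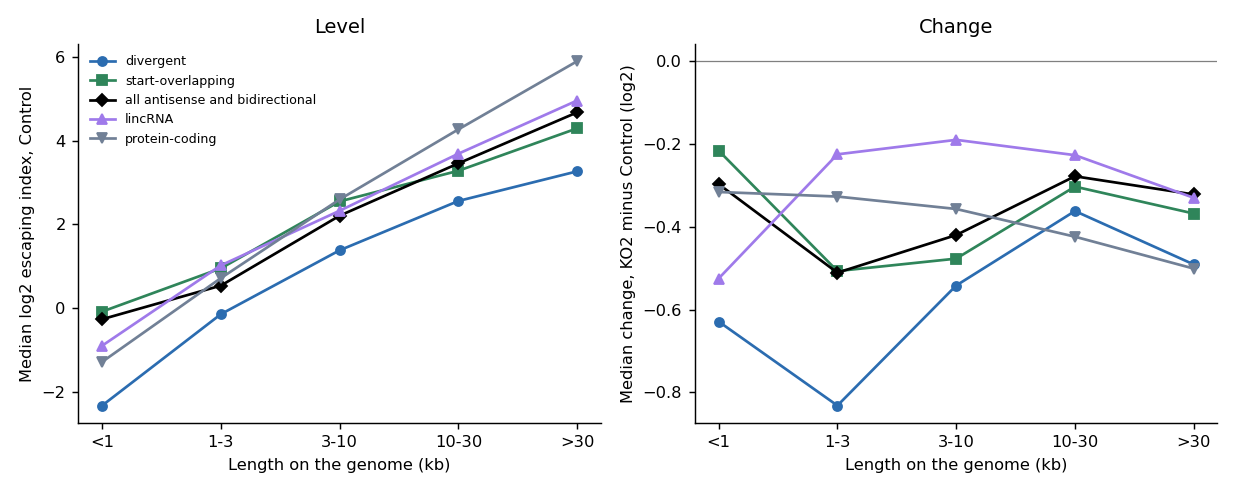
Left, the median log2 escaping index in Control cells by length on the genome (kb) for divergent, start-overlapping and all antisense or bidirectional transcripts, lincRNAs and protein-coding transcripts; right, the median change in KO2 against Control in the same bins. Divergent transcripts have the lowest Control level in every bin, for example -0.14 against 0.72 for coding transcripts at 1 to 3 kb; the divergent bin under 1 kb holds 9 transcripts.

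The level differed with the side of the coding start on which the noncoding RNA began. Divergent transcripts had a Control median of 0.97 and start-overlapping transcripts 2.21, although their median lengths were near equal (4436 and 4355 bases). Transcripts that started 1 to 100 bases upstream had a Control median of 0.67 (86 transcripts), those at 101 to 200 bases 1.05 (95) and those at 201 to 500 bases 0.96 (67). On the other side, transcripts that started 0 to 100 bases inside had a median of 2.00 (48), those at 101 to 200 bases 2.13 (35) and those at 201 to 500 bases 2.53 (106). The same order held in KO2, with 0.60 just upstream and 1.24 just inside. At like length the difference remained: at 1 to 3 kb the Control medians were -0.14 for 91 divergent and 0.95 for 97 start-overlapping transcripts, and at 3 to 10 kb they were 1.38 and 2.55. All start-overlapping bodies overlapped the coding gene, whereas 52 of the 268 divergent bodies did. The part of this overlap in the difference was not tested. The 216 divergent transcripts that did not overlap the gene had a Control median of 0.70.

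**Figure D2:**
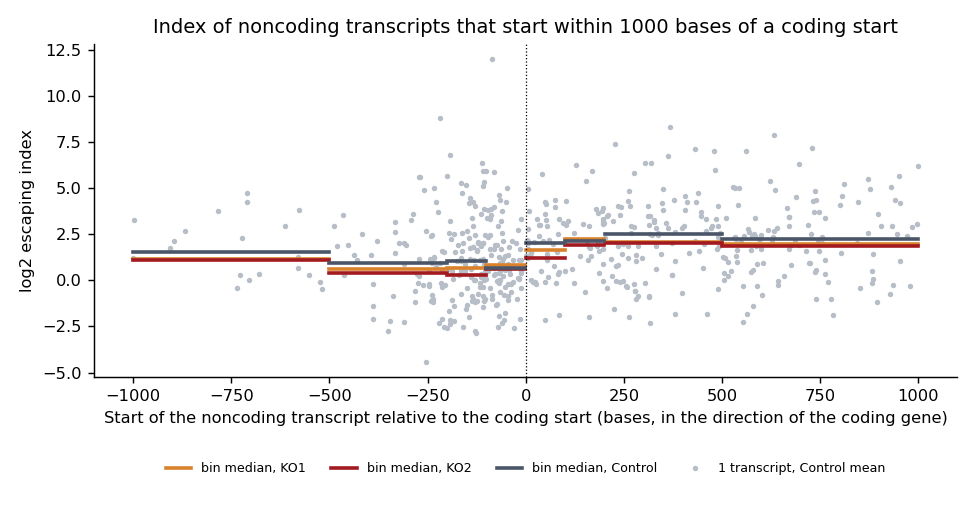
The log2 escaping index of noncoding transcripts by where they start relative to the coding start (bases, negative is upstream); grey points are Control means of single transcripts and bars are bin medians in KO1, KO2 and Control. The Control bars lie at 0.67 just upstream of the coding start and at 2.00 just inside it.

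Single transcripts covered a wide range. The highest Control level was that of Gm15564-202, a divergent transcript. It starts 85 bases upstream of the paired transcript of Kpna1 (importin alpha), but in an intron of that gene. It had 11.03 and 11.15 in KO1 and 11 and 11.03 in KO2, against 11.73 and 12.28 in Control. Tsix-201 had 10.41 and 9.48 in KO1 and 10.19 and 10.62 in KO2, against 9.82 and 10.51 in Control. Zfas1-205, a snoRNA host, starts 218 bases upstream of the paired transcript of Znfx1, but in an exon of that gene. It had 7.88 and 8.41 in KO1 and 8.93 and 8.87 in KO2, against 8.42 and 9.23 in Control. Knockouts and Control overlapped for Tsix-201, KO2 and Control overlapped for Zfas1-205, and Gm15564-202 was lower in all 4 knockout libraries. At the low end, the 616-base 2900060B14Rik-201 in an intron of Clasp1 had -5.85 and -5.95 in KO1 and -6.87 and -7.30 in KO2, against -5.69 and -5.54 in Control, and it fell by 1.48 in KO2 (limma adjusted p = 0.0361). These extremes were chosen after their values were seen. In 58 of the 1181 (4.91%), at least 1 library held a ratio of exactly 0 or 1, as few reads would give, against 0.928% of all distinct transcripts. Replicate libraries correlated at r = 0.946 to 0.955 across the noncoding transcripts and at 0.978 to 0.979 across all transcripts.

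The index of most antisense and bidirectional transcripts was lower in the Mettl3 knockouts, as it was across the table. In KO2 85 transcripts of 72 genes fell and 8 of 6 genes rose (limma, Benjamini-Hochberg adjusted p under 0.05 over all 67020 transcripts). That is 7.20% lower and 0.677% higher, where the whole table gave 9.41% lower and 0.386% higher, so both shares were near the background. Coding transcripts fell in 12.3% and lincRNAs in 6.14%. The falls lay between 0.74 and 2.40 on the log2 scale, and the rises lay between 1.19 and 1.96. The median change in KO2 was -0.38 over the noncoding transcripts, -0.32 over all transcripts, -0.43 over coding transcripts and -0.25 over lincRNAs. Both KO2 libraries lay below both Control libraries for 530 of the 1181 and above them for 115, or 44.9% and 9.74%, against 48.6% and 11.8% of all transcripts.

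In KO1 no transcript of the table passed (0.0% called; smallest adjusted p = 0.0712 by limma), while 244 of the 1181 had an unadjusted p under 0.05, 192 of them lower and 52 higher. That is 20.7%, against 24.1% of all transcripts. The median change was -0.24 over the noncoding transcripts and -0.20 over all transcripts. Both KO1 libraries lay below both Control libraries for 421 and above for 158, 35.6% and 13.4%, against 40.9% and 14.7% of all transcripts. For the average of both knockouts 67 fell (5.67%, against 8.16% of all transcripts) and 9 rose (0.762%, against 0.337%). Of the transcripts called in KO2, 55 were also called in the average, which shares its KO2 libraries. In the direct comparison of KO2 with KO1 no transcript passed by limma (smallest adjusted p = 0.188), and 206 of the 1181 (17.4%, against 16.3% of all transcripts) had an unadjusted p under 0.05 there. Both libraries of one knockout lay below and both of the other above Control for 49 of the 1181 (4.15%, against 3.79% of all transcripts).

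These changes came with a shift of the whole table. The median over all transcripts moved by -0.20 in KO1 and -0.32 in KO2, and once each library was centred on its own median the noncoding transcripts kept a median change of -0.02 in KO1 and -0.05 in KO2. No noncoding transcript was called after centring. Dropping any single library also left no noncoding call, while 273 to 343 noncoding transcripts had an unadjusted p under 0.05 in KO2. The calls named here therefore rest on all 6 libraries and on values as deposited.

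The median change varied with position. Over the 268 divergent transcripts it was -0.30 in KO1 and -0.56 in KO2, and over start-overlapping ones -0.31 in KO1 and -0.46 in KO2. Internal transcripts had -0.21 in KO1 and -0.28 in KO2. Those beyond the end had -0.15 in KO1 and -0.22 in KO2, and those elsewhere -0.19 in KO1 and -0.30 in KO2. In KO2 82.8% of divergent transcripts were lower than in Control, against 63.1% of internal ones and 71.1% of the 1181. Of the divergent transcripts 27 fell (10.1%) and 5 rose (1.87%) in KO2, and of the internal ones 13 fell (4.74%), against 9.41% lower and 0.386% higher over all transcripts. The divergent share of falls was thus near that of the table. After median centring the divergent median in KO2 was -0.23, against -0.05 over all noncoding transcripts, but with a pseudocount of 1 it was -0.26, near their -0.23. Within the divergent class both annotation types had similar medians, -0.57 for 115 bidirectional and -0.55 for 153 antisense transcripts in KO2. The 216 divergent transcripts that do not overlap the coding gene had a median change of -0.58 in KO2. By length, the divergent median in KO2 was -0.83 at 1 to 3 kb (91 transcripts), -0.54 at 3 to 10 kb (106) and -0.36 at 10 to 30 kb (41), whereas coding transcripts in the same bins had -0.33, -0.36 and -0.42. In the end bins it was -0.63 under 1 kb (9 transcripts) and -0.49 over 30 kb (21), and coding transcripts had -0.32 and -0.50 there. From 1 to 30 kb the order by length was reversed in KO1. The divergent medians there were -0.26 at 1 to 3 kb, -0.33 at 3 to 10 kb and -0.39 at 10 to 30 kb. Coding transcripts had -0.18, -0.26 and -0.29 in KO1.

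**Figure D3:**
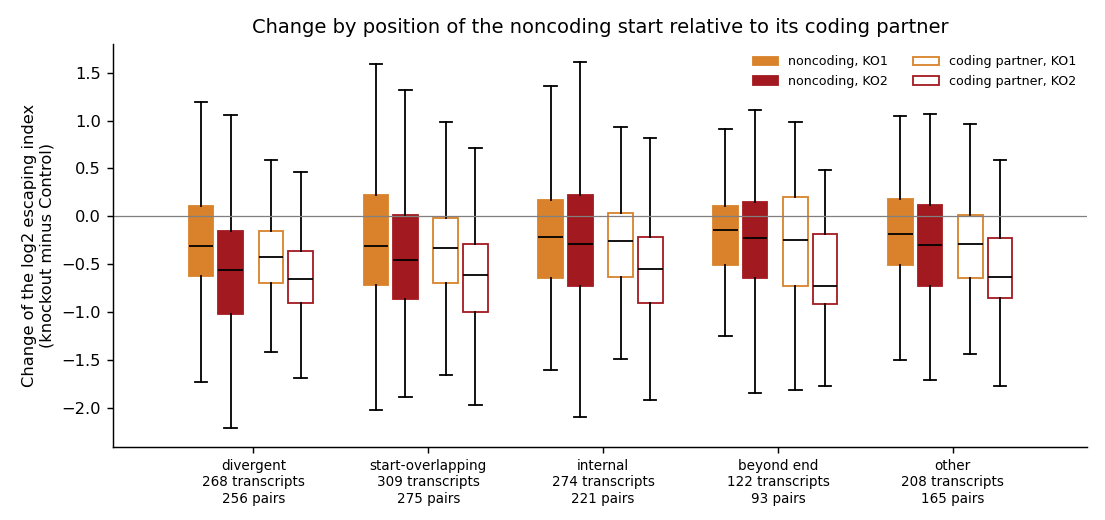
Change of the log2 escaping index in KO1 and KO2 against Control for noncoding transcripts (filled boxes) and their coding partners (open boxes) in 5 position classes; boxes span the quartiles, black lines are medians, and whiskers reach to 1.5 times the box height, with points beyond them not drawn. The filled KO2 box is lowest for divergent transcripts, with a median of -0.56.

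The transcripts that rose in KO2 came from 6 genes, while most of the table moved the other way. A930005H10Rik-206 (chr3:115881581-115888094, minus strand, 3 exons) had 1.95 and 1.32 in KO1 and 2.22 and 2.21 in KO2, against 0.71 and 0.38 in Control. All 4 knockout libraries lay above both Control libraries. It rose by 1.67 ± 0.27 in KO2 (SE; limma adjusted p = 0.0361), and the change in KO1 was 1.09 ± 0.27 (adjusted p = 0.101). Its isoforms 204 and 205, which start within 36 bases of it and share its body, also rose in KO2. Isoform 202, which starts 142 bases from it, changed by 1.21 ± 0.51 in KO2 and did not pass (limma adjusted p = 0.169). The coding partner Dph5 had 2.24 and 2.55 in KO1 and 2.56 and 2.28 in KO2, against 3.00 and 2.48 in Control, which overlap.

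B230110C06Rik-202, which starts in an intron of Lrrc3b, 803 bases inside it, had 2.59 and 2.52 in KO1 and 2.66 and 2.94 in KO2, against 1.39 and 1.59 in Control. It rose by 1.32 ± 0.20 in KO2 (limma adjusted p = 0.0354), with the groups well apart. Gm12963-202, 66 bases upstream of the collagen gene Col16a1, had 1.77 and 2.27 in KO1 and 1.79 and 1.87 in KO2, against 0.55 and 0.47 in Control, and rose by 1.32 ± 0.23 in KO2 (adjusted p = 0.0367). Gm12963-201, with the same start, changed by 0.98 in KO2 and did not pass (limma adjusted p = 0.0951). 1700065D16Rik-205 is a single-exon transcript that begins in an exon of Atr, the kinase that signals stalled replication. It had 2.89 and 2.19 in KO1 and 2.20 and 2.18 in KO2, against 1.04 and 0.86 in Control, and rose by 1.24 ± 0.27 in KO2 (adjusted p = 0.0485), while its partner Atr fell by 0.79 in KO2 (adjusted p = 0.0475). Isoform 1700065D16Rik-201 changed by 1.14 in KO2 and did not pass (limma adjusted p = 0.0575). 4933430L12Rik-201, opposite the start of Dedd2, rose by 1.95 ± 0.37 in KO2 (adjusted p = 0.0389), with a ratio of exactly 1 in a Control library, as few reads would give. It had 1.59 and 2.00 in KO1 and 1.5 and 1.42 in KO2, against -0.99 and 0.00 in Control.

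Isoforms of 1 gene could part ways. 2310010J17Rik-201, the isoform with the more distant start upstream of Picalm, had -1.64 and -1.27 in KO1 and 0.84 and 0.70 in KO2, against -0.40 and -0.44 in Control. KO1 lay below and KO2 above both Control libraries. It rose by 1.19 ± 0.22 in KO2 (limma adjusted p = 0.0383) and its KO1 change of -1.04 ± 0.22 did not pass (adjusted p = 0.0839). 2310010J17Rik-202, which starts 507 bases closer to Picalm, had -0.30 and -0.33 in KO1 and -0.77 and -0.80 in KO2, against 0.58 and 0.84 in Control, and fell by 1.5 ± 0.20 in KO2 (adjusted p = 0.0354). This was the 1 gene of the set with isoforms called in opposite directions in KO2. Picalm itself had 7.34 and 7.76 in KO1 and 6.80 and 7.21 in KO2, against 8.83 and 8.68 in Control, and fell by 1.75 in KO2 (adjusted p = 0.0354). The isoforms share most of their body, and the RefSeq windows nearest their starts hold 9 CG pairs for 201 and 46 for 202 and 203. Neither the difference between the isoforms nor a link to these windows was tested. Among the 215 genes with more than 1 transcript, the changes in KO2 had 1 sign in 140 genes and both signs in 75. These are signs without a threshold, so small changes count too. They were not counted for other genes, so mixed signs cannot be called a trait of these RNAs.

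**Figure D4:**
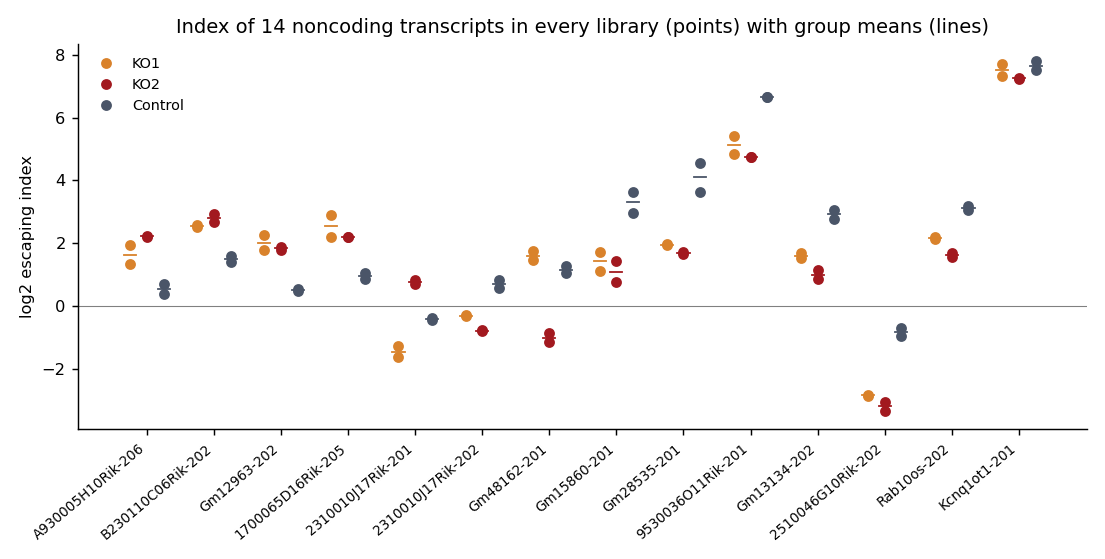
The log2 escaping index of 14 noncoding transcripts in each library (points; KO1, KO2 and Control from left to right, with a line at each group mean of 2 libraries). The 5 leftmost transcripts lie above Control in KO2, and 2310010J17Rik-201 lies below Control in KO1 and above it in KO2.

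The falls with the smallest p were those of antisense RNAs at genes with many different roles. They were chosen by p and not by size. 2510046G10Rik-202, a single exon of 1052 bases that begins in an intron of Sgf29 (a reader subunit of the SAGA complex), had -2.83 and -2.87 in KO1 and -3.36 and -3.05 in KO2, against -0.97 and -0.69 in Control. It fell by 2.38 ± 0.23 in KO2 (limma adjusted p = 0.0354), with all knockout libraries far below Control. Gm48162-201 starts 58 bases upstream of the paired transcript of the retinoic acid receptor gene Rarb, but in an exon of that gene. It had 1.74 and 1.46 in KO1 and -1.15 and -0.87 in KO2, against 1.05 and 1.26 in Control. It fell by 2.17 ± 0.22 in KO2 (adjusted p = 0.0354), whereas both KO1 libraries lay above Control. Gm13134-202, inside an intron of the transcription factor gene Prdm16, had 1.67 and 1.52 in KO1 and 0.86 and 1.14 in KO2, against 2.76 and 3.07 in Control, and fell by 1.91 ± 0.22 in KO2 (adjusted p = 0.0354). Its partner Prdm16 changed by -0.09 in KO2 (adjusted p = 0.874).

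The longest of the transcripts, 9530036O11Rik-201, spans 475722 bases (chr5:28458274-28933995, plus strand) from an exon of Shh, the gene of the sonic hedgehog ligand. It had 4.84 and 5.41 in KO1 and 4.74 and 4.75 in KO2, against 6.67 and 6.65 in Control, and fell by 1.92 ± 0.23 in KO2 (limma adjusted p = 0.0354). Gm47350-201 at Dpp8 fell by 1.61 ± 0.19 and 4930524O07Rik-201, beyond the end of Dock3, by 1.84 ± 0.24 in KO2 (adjusted p = 0.0354 for both). In the average of both knockouts Gm28535-201, beyond the end of the kinase gene Pask, fell by 2.27 ± 0.27 (adjusted p = 0.0341), with 1.95 and 1.96 in KO1 and 1.73 and 1.66 in KO2, against 3.64 and 4.55 in Control. Its fall in KO2 was 2.4 (limma adjusted p = 0.0354), larger than those named above. Gm45437-202, antisense inside Rasip1, fell by 1.86 ± 0.22 and Gm11696-204, at the start of the G protein gene Gna13, by 1.42 ± 0.17 in the average (adjusted p = 0.0341 for both). Gm11696-204 had 2.56 and 2.48 in KO1 and 3.18 and 3.13 in KO2, against 4.09 and 4.43 in Control, and Gna13 fell with it in the average, by 0.98 (adjusted p = 0.0487).

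Isoforms of Rab10os, which starts beyond the end of the small GTPase gene Rab10, also split. Rab10os-202 had 2.14 and 2.20 in KO1 and 1.69 and 1.56 in KO2, against 3.05 and 3.18 in Control, and fell by 1.49 ± 0.18 in KO2 (limma adjusted p = 0.0354). Isoforms 203 and 204 fell by 1.5 and 1.46. In contrast Rab10os-205 and 207, which start 265 and 389 bases farther downstream, changed by 0.24 and 0.19 in KO2 (adjusted p = 0.452 and 0.727). Rab10os-205 had 2.74 and 2.71 in KO1 and 3.27 and 3.61 in KO2, against 3.11 and 3.29 in Control, so KO2 overlapped Control and KO1 lay below it.

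In KO1 the noncoding transcripts with the smallest p are given as values, and some others with larger changes had larger p. Those with higher values were 4933430L12Rik-201 with a change of 2.29, 1700065D16Rik-205 with 1.59, Gm12963-202 with 1.51 and Gm20632-201 with 1.34. Those with lower values were 2510046G10Rik-202 with -2.02, Gm45437-202 with -1.92, Gm11696-204 with -1.74 and Gm11696-203 with -1.56. For all 8 both KO1 libraries lay outside the range of both Control libraries, in the direction given. A choice by smallest p favours such separation, so it adds no support. Both KO1 libraries of Gm20632-201, at the histone gene Hist2h2aa2, stood alone at 1.17 and 1.22, against -0.39 and -0.30 in KO2 and -0.10 and -0.19 in Control.

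Noncoding RNA and coding partner were then compared within each pair. The pair difference is the change of the noncoding transcript minus that of its partner, and it was fitted over all 51102 transcripts that have a partner. No pair passed in any contrast (0.0% called for the average; smallest adjusted p = 0.133 for KO1, 0.103 for KO2 and 0.0936 for the average by limma). With an unadjusted p under 0.05 there were 177 of the 1010 noncoding pairs for KO1, 196 for KO2 and 200 for their average. These are 17.5%, 19.4% and 19.8%, against 18.7%, 21.9% and 22.2% of all pairs. The median difference was 0.08 in KO1 and 0.20 in KO2 over noncoding pairs, and 0.17 and 0.25 over all pairs, so in these medians the noncoding change was smaller than that of the partner, as it was for other transcripts. The size depended on how partners were summarised and scaled: it was 0.025 in KO1 and 0.096 in KO2 against the mean of the partner's transcripts, and 0.006 and 0.091 after quantile normalization.

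The pair medians differed by position in KO2. They were 0.05 for divergent pairs, 0.18 for start-overlapping, 0.28 for internal and 0.31 for those beyond the end. Divergent RNAs changed by nearly as much as their partners in KO2 (-0.56 and -0.65 in the medians), and internal ones by less (-0.28 and -0.55). The RNA medians here are over all transcripts of a class, and the partner medians only over those with a partner. In KO1 the order was different, with 0.17 for divergent and 0.04 for internal pairs. Across pairs the changes of RNA and partner were weakly related at most, and Pearson's r over the 256 divergent pairs was 0.091 in KO2 and 0.021 in KO1, where pairs share libraries and 189 partner genes. For the Control levels r over the divergent pairs was -0.007. In 256 divergent pairs the noncoding RNA fell in 26, the partner in 58 and both in 5 in KO2, with a partner counted once per pair. Counted by transcript, 10.1% of divergent RNAs fell, against 9.41% of all transcripts. Of the 688 distinct partner transcripts at all positions 16.4% fell, against 12.3% of coding transcripts. Whether joint falls were more or less frequent than these shares would give was not tested.

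**Figure D5:**
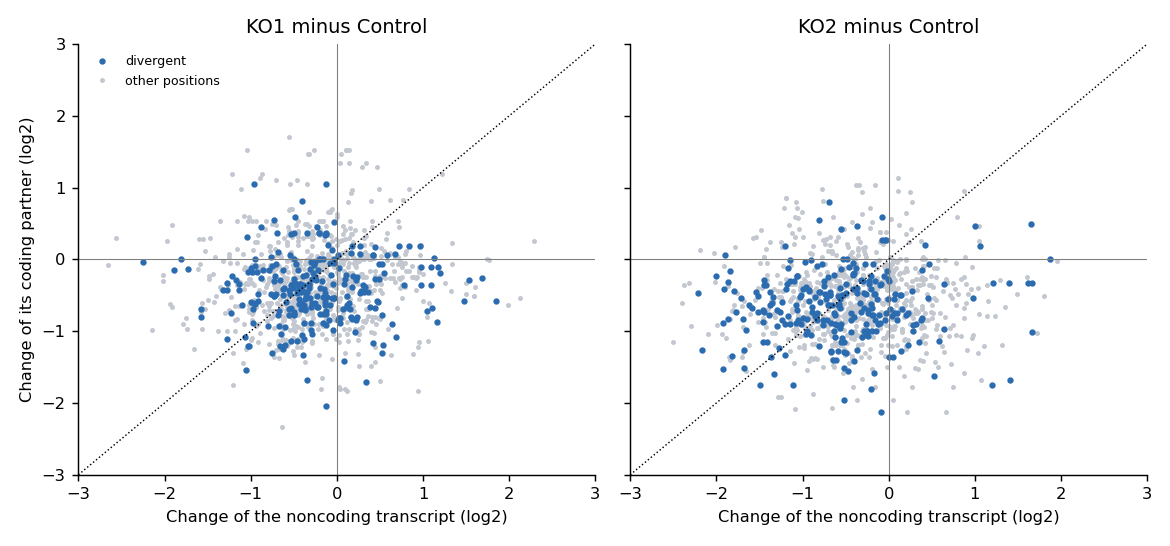
Change of the log2 escaping index of each coding partner against that of its noncoding transcript in KO1 (left) and KO2 (right), relative to Control, for 256 divergent pairs (blue) and all other pairs (grey); the dotted line marks equal change. In KO2 the median change is -0.56 over all 268 divergent transcripts and -0.65 over the partners in the 256 pairs.

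The 4 divergent pairs with the smallest p in the average illustrate both directions. Gm15862-201 starts 26 bases upstream of the paired transcript of Nrip2 (a nuclear receptor interacting protein), but in an intron of that gene. It had 2.87 and 2.46 in KO1 and 4.12 and 2.74 in KO2, against 1.69 and 2.35 in Control. Nrip2 had 0.35 and -0.85 in KO1 and -0.71 and -1.35 in KO2, against 0.42 and 0.88 in Control, and the pair difference was 2.32 ± 0.37 in the average (limma adjusted p = 0.0936). The pair of A930005H10Rik-206 and Dph5 differed by 1.72 ± 0.35 and that of 2310010J17Rik-201 and Picalm by 1.56 ± 0.32 (adjusted p = 0.0936 for both). Gm15860-201 starts 11 bases upstream of the paired transcript of Bcl7a (a subunit of the BAF chromatin remodeller), but in an intron of that gene. Gm15860-201 had a pair difference of -1.74 ± 0.36 (adjusted p = 0.0936). It had 1.72 and 1.11 in KO1 and 1.42 and 0.77 in KO2, against 2.97 and 3.64 in Control, and fell by 2.05 ± 0.32 in the average (adjusted p = 0.035). Bcl7a had 3.63 and 3.73 in KO1 and 3.35 and 3.38 in KO2, against 3.64 and 4.02 in Control. The isoform Gm15860-203, which starts 102 bases from Gm15860-201, did not share the large fall. It changed by -0.53 in the average (limma adjusted p = 0.117), with a pair difference of -0.22 (adjusted p = 0.713).

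RNAs with an established antisense name were examined as a list: 144 transcripts of 77 genes. In KO2 11 of them fell (7.64%, against 9.41% of all transcripts) and 0 rose by limma (33 lower and 5 higher at an unadjusted p under 0.05), with changes between -2.19 and 1.67 and a median of -0.32. In the average 8 fell (5.56%, against 8.16% of all transcripts) and 0 rose (32 lower and 4 higher unadjusted), with a median of -0.28. In KO1 none passed (21 lower and 4 higher unadjusted), with a median of -0.24. Over all transcripts the KO2 median was -0.32 as well. Among those that fell in KO2, Kcnmb4os2-201 at the potassium channel subunit gene Kcnmb4 had 0.19 and 0.83 in KO1 and -0.40 and 0.13 in KO2, against 1.66 and 1.48 in Control (-1.71 ± 0.31, adjusted p = 0.0378). Appbp2os-201 had 0.00 and -0.14 in KO1 and -0.92 and -0.93 in KO2, against 0.23 and 0.50 in Control (-1.29, adjusted p = 0.0361), with a ratio of exactly 1 in a KO1 library. Tmem51os1-203 had 0.71 and 0.16 in KO1 and 0.87 and 1.12 in KO2, against 2.05 and 2.27 in Control, and fell by 1.16 ± 0.26 in KO2 (adjusted p = 0.0495). H3f3aos-201, opposite a histone H3.3 gene, fell by 1.19 (adjusted p = 0.0397) and Man2c1os-201 by 0.87 (adjusted p = 0.0463) in KO2.

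The antisense RNAs with known imprinting or X-inactivation roles did not pass. Kcnq1ot1-201 (chr7:143203458-143296549) had 7.71 and 7.32 in KO1 and 7.27 and 7.24 in KO2, against 7.79 and 7.53 in Control, with a change of -0.41 ± 0.22 in KO2 (limma adjusted p = 0.271). The 5 isoforms of Airn, antisense to Igf2r, had changes in KO2 between -0.12 and 0.20 (adjusted p between 0.548 and 0.952). Airn-204, the longest at 118826 bases, had 5.40 and 5.22 in KO1 and 5.23 and 5.77 in KO2, against 5.44 and 5.62 in Control. KO2 and Control overlap there, and KO1 lies just below. Nespas-203, antisense at Gnas, had 7.17 and 7.29 in KO1 and 7.47 and 7.45 in KO2, against 7.44 and 7.56 in Control. Snhg14-204, from the RNA that runs antisense to Ube3a, had 3.01 and 2.74 in KO1 and 2.50 and 2.61 in KO2, against 1.89 and 2.09 in Control, a change of 0.73 in the average (adjusted p = 0.0556). Tsix-201 changed by 0.24 in KO2 (adjusted p = 0.746). These values give no call, which does not show that the RNAs were unaffected.

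Tug1, a widely expressed long RNA divergent to Morc2a, had isoforms with unlike changes. Tug1-204, 149 bases upstream of Morc2a and 2203 bases long, had -1.78 and -1.89 in KO1 and -2.51 and -2.52 in KO2, against -1.30 and -1.41 in Control, and fell by 1.16 in KO2 (limma adjusted p = 0.0361). Tug1-203, which starts 1661 bases upstream and is 7737 bases long, had 4.98 and 4.48 in KO1 and 5.53 and 5.00 in KO2, against 4.58 and 4.84 in Control, with a change of 0.56 (adjusted p = 0.232). Tug1-202, 379 bases upstream, changed by -0.38 in KO2 (adjusted p = 0.25). Of the measured Tug1 isoforms only Tug1-204 was called in KO2, and whether the change depends on the start was not tested. Crnde-201, 1505 bases upstream of the homeobox gene Irx5, had 1.98 and 2.44 in KO1 and 1.48 and 1.59 in KO2, against 2.95 and 3.45 in Control, and fell by 1.66 ± 0.26 in KO2 (adjusted p = 0.0361). Tug1 and Crnde were named after their values were seen.

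The table also held all 30 listed coding genes of the exosome, cap binding, 3 prime end cleavage and U1 machineries that end or degrade antisense RNAs. At their own genes the median change was -0.31 in KO1 and -0.56 in KO2, with -0.28 and -0.43 over all coding transcripts. The sets are unlike, since the list takes only the outermost-start coding transcript of each gene. The 688 partner transcripts, chosen in the same way, had medians of -0.34 in KO1 and -0.59 in KO2, and 16.4% of them fell in KO2. In KO2 Srrt, the ARS2 protein that links the RNA cap to the exosome, was the 1 gene of the 30 that fell (3.33%, against 12.3% of coding transcripts). It had 4.07 and 4.07 in KO1 and 3.66 and 3.66 in KO2, against 4.64 and 4.60 in Control (adjusted p = 0.0361 by limma). In the average Srrt and the exosome subunit gene Exosc8 fell, by 0.76 and 0.98 (adjusted p = 0.038 and 0.0441), which is 6.67% of the list, against 10.7% of coding transcripts. Ythdc1, the nuclear m6A reader, had 3.05 and 2.90 in KO1 and 2.85 and 3.02 in KO2, against 3.54 and 3.57 in Control, with an average change of -0.60 (adjusted p = 0.0637).

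Read depth is unknown for all libraries. Mettl3 had 2.44 and 2.42 in KO1 and 2.1 and 2.30 in KO2, against 2.69 and 2.46 in Control (limma adjusted p = 0.682 in KO1 and 0.241 in KO2), and as a ratio within the gene this does not test its deletion. All 10 stem cell marker genes and 3 of 10 fibroblast (feeder) marker genes, Col1a1, Thy1 and Pdgfra, were listed, and a listing says nothing of their level.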

How the data were processed

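The deposited file holds an escaping index, in log2, for 68473 transcripts in 6 mNET-seq libraries, as computed by the authors. Per the submitters' processing notes, CASAVA, Trimmomatic 0.38, HISAT2 2.1.0 and featureCounts were used with mm10. For the index windows, its offset and strand, the sources used here give nothing. Once an offset read from the smallest value is taken off, the commonest ratio is exactly 1 (within 1e-09). Depth is unknown, so no counting interval is given.

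Transcripts were joined to GENCODE M21 (68397 matched and 76 did not). With limma 3.58.1 (R 4.3.3), the 3 groups entered 1 fit of group means with a trended prior (two-sided, 3 residual plus 2.71 prior degrees of freedom, 4.44 prior for pairs). Values were not rescaled, and Benjamini-Hochberg adjustment ran over all distinct transcripts. The procedure was tested on simulated data. The pseudocount became an alternative, since values were already log2.

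Named transcripts are those called, up to 8 per direction and contrast by ascending p, if every knockout library lies on 1 side of Control. To these come up to 4 more as values, up to 3 per direction for KO2 against KO1, the 4 divergent pairs with the smallest p, and up to 15 antisense-named RNAs. The set and the lists were chosen with earlier results of these data known. Tables and figures used Python 3.11.15 and pandas 2.3.3.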

Additional observations from a re-analysis of the deposited data

Results flagged for a closer look

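For 6 of the named transcripts both KO1 libraries lay on one side of both Control libraries and both KO2 libraries on the other. KO2 minus KO1 was 2.23 for 2310010J17Rik-201, 1.69 for Gm38405-203 and 1.31 for Gm14717-201, and it was -2.61 for Gm48162-201, -2.11 for Gm44702-201 and -1.54 for Gm20632-201 on the log2 scale. By limma's direct comparison of the knockouts the adjusted p was 0.188 for all 6, the smallest in the table, so none passed. Such opposite placement was seen in 49 of the 1181 noncoding transcripts (4.15%), against 3.79% of all transcripts, and 2 libraries in each group allow no check for a single outlying library. Gm44702-201, 979 bases inside Hnrnpl, had 0.05 and 0.03 in KO1 and -2.29 and -1.86 in KO2, against -0.19 and -0.40 in Control. Gm38405-203, inside Xrra1, had -1.58 and -1.19 in KO1 and -0.09 and 0.71 in KO2, against -0.12 and -0.13 in Control. Gm14717-201 had 3.95 and 3.58 in KO1 and 5.17 and 4.97 in KO2, against 4.18 and 4.57 in Control.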

How the results depend on the processing

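The 93 noncoding calls in KO2 and 76 in the average became 0 and 0 under median centring, quantile normalization and the replicate block, and 0 in KO2 with KO2 and Control fitted alone; leaving out any 1 library gave 0 to 0 calls in KO1, KO2 and the average. At an unadjusted p under 0.05, KO2 then kept 277 with centring, 295 with quantile normalization, 351 with the block and 343 fitted alone, and the average 251, 263 and 317 in the first 3 of these. With 1 library left out the unadjusted counts were 197 to 239 in KO1, 273 to 343 in KO2 and 251 to 302 in the average. The block is no pairing: deviations of same-numbered replicates correlated at -0.007, 0 and 0.015. A pseudocount of 1, the filters on low or thinly read transcripts and 1 transcript per gene kept each count within 1.5 times. KO1 stayed at 0 throughout (145 to 265 unadjusted), as did the pair calls (137 to 233 unadjusted).

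The median change of the noncoding transcripts in KO1, KO2 and the average was -0.15, -0.23 and -0.18 with a pseudocount of 1, -0.020, -0.051 and -0.024 with centring, and -0.056, -0.085 and -0.058 with quantile normalization. It was -0.31 in KO2 and -0.25 in the average for a mean index of 0 or more, -0.43 in KO2 for 1 transcript per gene, and -0.49 and -0.36 for transcripts that do not overlap their gene. Leaving out 1 library gave -0.25 to -0.23, -0.41 to -0.34 and -0.31 to -0.27. The divergent median in KO2 was -0.26 with the pseudocount, -0.47 for a mean index of 0 or more, -0.23 with centring and -0.30 with quantile normalization, settings applied to this class after seeing the data, and -0.58 to -0.52 with 1 library left out.

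The median pair difference in KO1, KO2 and the average was 0.14, 0.29 and 0.22 with the pseudocount, 0.006, 0.091 and 0.041 with quantile normalization (added after seeing the data), and 0.025, 0.096 and 0.041 against the mean of the partner's transcripts. It was 0.17 in KO2 with partners nearest by start, and 0.072 to 0.10, 0.18 to 0.22 and 0.10 to 0.15 with 1 library left out. The Control level minus that of coding transcripts at like length was -1.29 by spliced length. Single transcripts were followed through these settings only where the naming rule chose them. None of their 55 called changes reversed, but all 55 were weaker with median centring, with quantile normalization and with the replicate block. For other cases the cause was not tested.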
